A study of Mus musculus with 8 samples.

Results

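A set of 10 genes of the heat shock response was followed in mouse lung after mepenzolate or vehicle: the small heat shock protein Hspb1, the HSP70 proteins Hspa1a, Hspa1b and Hspa8, the HSP110 protein Hsph1, the J protein Dnajb1, the cochaperone Bag3, the cytosolic HSP90 Hsp90aa1, and the mitochondrial chaperonin pair Hspd1 and Hspe1. They were chosen by name, as were the further lists below, but with earlier results of these data known. Each was read from the brightest of its probes with exactly 1 gene symbol, by the mean over all arrays. This gave 9 of the 10 listed genes among 19937 genes with such a probe, and all 9 were among the 14953 genes bright enough to test. Hspa1b had only a probe that it shares with Hspa1a, so it has no value of its own.

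The 4 groups were mepenzolate lungs at 25 h, mepenzolate lungs at 7 h, vehicle lungs at 25 h and vehicle lungs at 7 h, with 2 arrays each and 8 in all. Mepenzolate, a muscarinic receptor blocker, was given in buffered saline into the trachea under chloral hydrate anaesthesia (500 mg/kg); the vehicle samples carry the same protocol text, which speaks only of giving mepenzolate and not of how the vehicle was given. Strain, age, sex and dose of mepenzolate are not given there either. The study asked how mepenzolate lowers inflammation and oxidative stress in the lung, and its own analysis was of gene sets at 25 h. Whether the paired arrays of a group are 2 mice or 2 aliquots is not in the labels, and the p-values hold only for the scatter among these 8 arrays, some of which may be technical.

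Heat shock proteins are chaperones that hold, fold or clear proteins that have lost their shape. When unfolded proteins accumulate, the transcription factor HSF1 is released from chaperones and binds heat shock elements, inverted repeats of the letters GAA, in front of the inducible genes. In lung the response is known from heat, oxidants, infection and ventilation injury, and Hspb1 is also a constituent of smooth muscle, where it binds the actin skeleton.

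RefSeq promoter windows of GRCm38.p6 were available for 8 of the 10 genes, in 11 entries, and the 250 bases before each annotated start were searched for the inverted repeats GAANNTTC and TTCNNGAA, where N is any base. Each repeat reads the same on both strands, and both kinds can overlap each other. At least 1 match was found for 6 of the 8 genes and none for Bag3 and Dnajb1, while 12.8% of the 32851 mouse promoter windows hold one (6.69% hold GAANNTTC and 7.17% TTCNNGAA). The count is per gene, over any of its windows, and the share is per window, so they are not on the same footing. Nor are the 6 genes separate cases, since Hspd1 and Hspe1 share a stretch and Hspa1a and Hspa1b are near-identical there. A match is a description of these letters and not a measured binding site. The windows below are those of the genes on which the results turn: Hspb1, the gene that differed with time, Hspa1a, the one of the 9 whose mepenzolate and vehicle arrays did not overlap at either time, and Hspe1, whose start lies head to head with that of Hspd1. They run from 5′ to 3′ on the gene's strand and end at the base before the start, and capitals mark the matches.
Hspb1, GRCm38.p6, chr5:135887669-135887918, plus strand: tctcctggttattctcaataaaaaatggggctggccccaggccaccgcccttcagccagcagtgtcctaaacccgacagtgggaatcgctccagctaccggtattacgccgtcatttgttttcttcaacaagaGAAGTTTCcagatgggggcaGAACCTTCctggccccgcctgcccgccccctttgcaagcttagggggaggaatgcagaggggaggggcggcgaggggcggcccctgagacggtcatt
Hspa1a, GRCm38.p6, chr17:34972157-34972406, minus strand: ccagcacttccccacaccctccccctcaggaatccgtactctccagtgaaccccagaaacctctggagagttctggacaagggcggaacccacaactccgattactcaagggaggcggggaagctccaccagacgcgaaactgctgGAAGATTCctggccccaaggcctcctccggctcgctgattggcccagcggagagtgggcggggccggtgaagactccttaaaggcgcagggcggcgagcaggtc
Hspe1, GRCm38.p6, chr1:55087898-55088147, plus strand: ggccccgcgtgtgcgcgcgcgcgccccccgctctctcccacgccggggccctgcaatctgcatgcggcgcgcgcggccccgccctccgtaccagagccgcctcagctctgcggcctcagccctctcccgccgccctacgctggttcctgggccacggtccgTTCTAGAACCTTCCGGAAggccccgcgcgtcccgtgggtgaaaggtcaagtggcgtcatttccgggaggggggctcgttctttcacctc
The Hspb1 window has 2 separate matches, which begin 117 and 97 bases before the start. Hspa1a has 1, which begins 104 bases before it. In Hspe1 the capitals are 3 overlapping matches, beginning 89, 84 and 79 bases before the start, and the same stretch lies on the other strand before a start of Hspd1. The windows of Hspa1a and Hspa1b were identical at 247 of 250 bases. The E-box CACGTG, the letters bound by the clock factors, was in 6.02% of all windows and in those of 2 of these genes, Hsph1 and a second start of Hspd1, and not in the Hspb1 window.

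Hspb1 was lower at 25 h than at 7 h in lungs of both treatments, and it was the only one of the 9 genes to pass the test in any comparison. HSPB1 is an ATP-independent holding chaperone that keeps partly unfolded proteins soluble. On the log2 scale it had 9.62 and 9.37 in mepenzolate lungs at 25 h, against 10.26 and 10.68 in mepenzolate lungs at 7 h. In vehicle lungs it had 9.55 and 9.55 at 25 h, against 10.46 and 10.45 at 7 h. The 4 arrays at 25 h all lay below the 4 at 7 h, with no overlap, and the vehicle arrays of each time were nearly equal to each other. The difference, 25 h minus 7 h averaged over both treatments, was -0.94 ± 0.10 (SE; 4 arrays against 4), which is 1.92-fold lower at 25 h (95% interval 1.64 to 2.25), with adjusted p = 0.0101 in limma over all genes. By p-value Hspb1 ranked 16 of 14953 genes. Of all genes tested 0.221% passed in this comparison, 0.181% passed as lower, and 4.15% had arrays at 25 h wholly below those at 7 h.

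The call was close to the threshold. With single arrays left out in turn the difference ranged from -1.04 to -0.84 and the adjusted p in limma between 0.0082 and 0.0803. It missed the threshold without mepenzolate 25 h replicate 2 (adjusted p = 0.0758), vehicle 25 h replicate 2 (0.0803), vehicle 7 h replicate 1 (0.0579) or vehicle 7 h replicate 2 (0.0585). A second, dimmer Hspb1 probe had 9.19 and 9.16 in mepenzolate lungs at 25 h and 9.78 and 10.16 at 7 h. In vehicle lungs that probe had 9.24 and 9.02 at 25 h and 10.08 and 9.91 at 7 h. Its arrays were split by time without overlap as well, with a difference of -0.83 ± 0.10. In a fit of all 26070 bright probes as separate features, where 0.0422% passed, neither Hspb1 probe did (adjusted p = 0.0624 for the brighter and 0.0938 for the dimmer, limma).

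**Figure D1:**
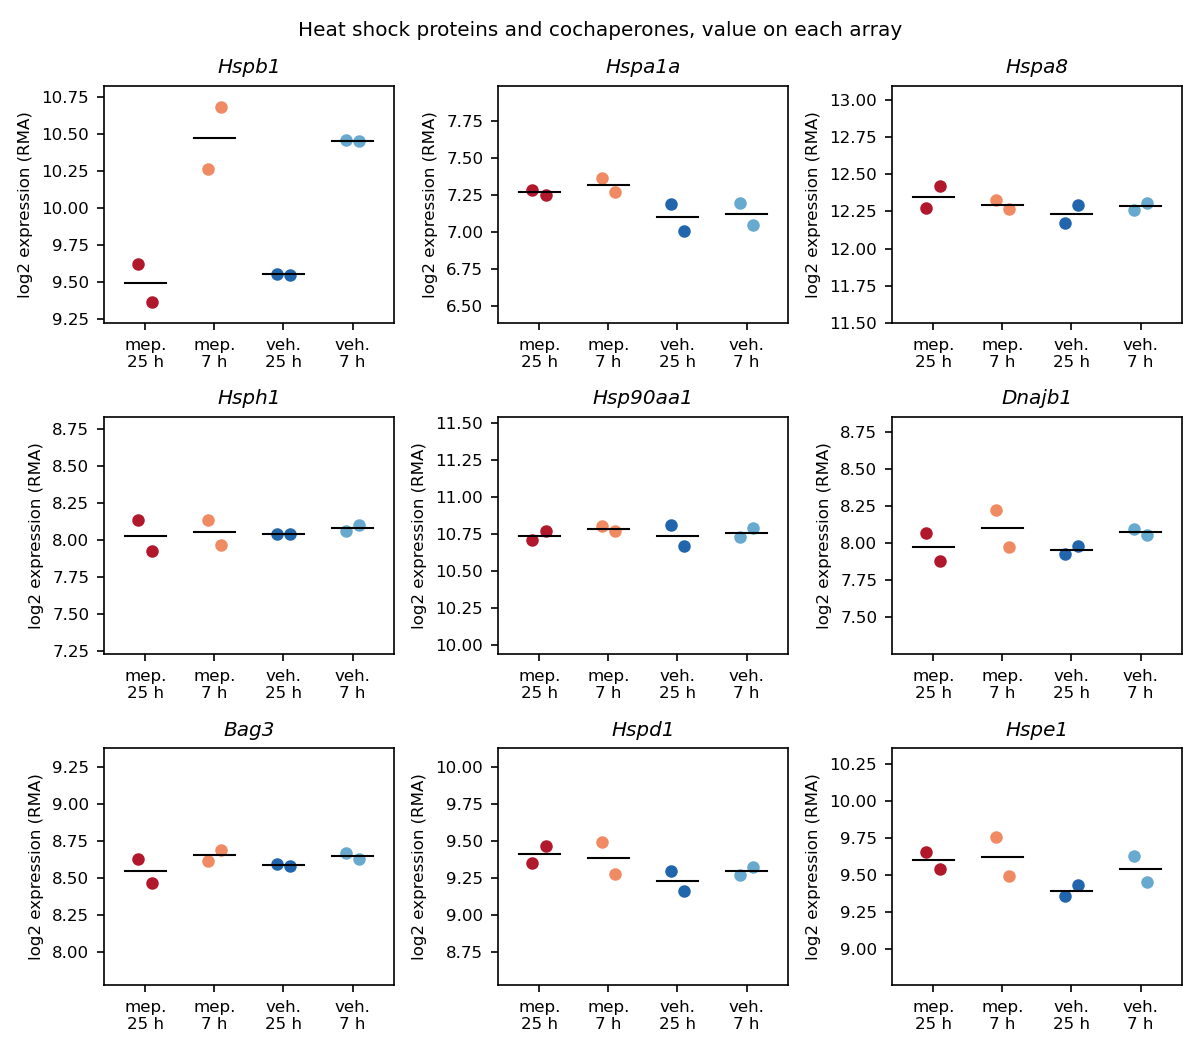
Log2 expression (RMA) of the 9 measured genes on each of the 8 arrays, 1 panel per gene, with mepenzolate (mep.) left of vehicle (veh.) and 25 h left of 7 h; points are arrays, lines are group means, and every panel spans the same height on its log2 axis. Hspb1 sits about 1 unit lower at 25 h under both treatments, between 9.37 and 9.62 against 10.26 to 10.68 at 7 h, while the other 8 genes stay within a narrow band.

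Taken within each treatment, the time difference of Hspb1 was -0.98 ± 0.14 in mepenzolate lungs and -0.90 ± 0.14 in vehicle lungs, each with adjusted p = 0.119 (limma). At 2 arrays against 2, only 0.0268% of all genes passed in mepenzolate lungs and 0.0869% in vehicle lungs. The vehicle difference did pass after median centring of the arrays (-0.94, adjusted p = 0.0346 in limma), with an intensity trend (0.0344), with array weights (0.00983) and in a fit of the vehicle arrays alone (0.0208). It did not pass with the replicate block (adjusted p = 0.102 in limma), no filter (0.167), a stricter filter (0.0635) or quantile normalization (0.184). Nor did it pass with averaged probes (0.096), in the fit of single probes (0.424), or when any 1 vehicle array was left out.

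Mepenzolate itself left Hspb1 without a detectable difference. At 25 h the mean was 9.49 ± 0.18 in mepenzolate lungs and 9.55 ± 0.0027 in vehicle lungs (SD, n = 2 each), a difference of -0.06 with an interval of -0.38 to 0.27. At 7 h it was 10.47 ± 0.29 in mepenzolate lungs and 10.45 ± 0.0035 in vehicle lungs, a difference of 0.02 (interval -0.31 to 0.34). In order of level the groups were mepenzolate 7 h, vehicle 7 h, vehicle 25 h and mepenzolate 25 h, and neighbours of the same time overlapped. The change of the mepenzolate effect between the times was -0.07 ± 0.20, with an interval of -0.53 to 0.38.

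The other 8 measured genes did not pass the test for time. All 8 were nominally lower at 25 h averaged over both treatments, with differences between -0.12 and -0.00014 (Hspa8 turned to 0.0075 after quantile normalization), and 49.3% of all genes tested were below 0 as well. When some single arrays were left out, Hspa1a, Hspa8, Hsph1, Hsp90aa1 and Hspd1 turned positive (up to 0.011, 0.036, 0.022, 0.00030 and 0.030). In the main fit the intervals of the 8 genes ran between -0.30 and 0.14, and the lowest adjusted p was 0.73 (limma), for Dnajb1. In vehicle lungs 5 of the 9 genes, Hspb1 included, had arrays at 25 h below those at 7 h without overlap, against 22.2% of all genes; in mepenzolate lungs 2 of 9 did, against 15.2%. With 2 arrays a side such separation is frequent, and for Hsph1 in vehicle lungs it came with a difference of only -0.04.

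**Figure D2:**
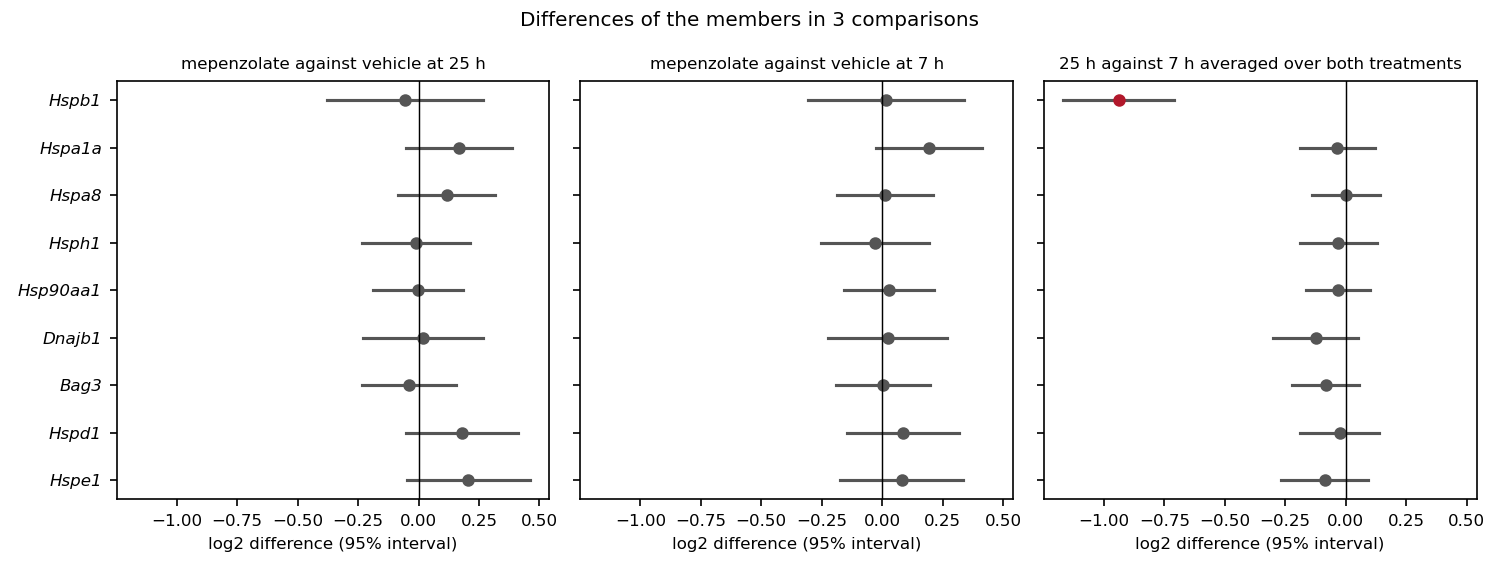
Log2 differences of the 9 genes (points) with 95% intervals (lines) for mepenzolate against vehicle at 25 h, mepenzolate against vehicle at 7 h, and 25 h against 7 h averaged over both treatments; red marks an adjusted p below 0.05 in limma. Only Hspb1 in the comparison of times, at -0.94, lies apart from 0, and no other gene is past ±0.21.

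The small heat shock family was read next, since Hspb1 belongs to it. Of its 8 other members on the list, including the crystallin Cryab and the muscle-rich Hspb6, Hspb7 and Hspb8, none passed the test for time. All 8 were nominally lower at 25 h, with a median difference of -0.11 against 0.0014 over all genes, though Hspb2, Hspb3, Hspb9 and Hspb11 turned to a positive difference when some single arrays were left out (up to 0.0018, 0.028, 0.090 and 0.051). Of these, 3 (Hspb6, Hspb8 and Cryab, named here after their values were seen) had an unadjusted p below 0.05, as did 8.97% of all genes. Cryab, which forms mixed complexes with HSPB1, had 11.05 and 10.88 in mepenzolate lungs at 25 h, against 11.16 and 11.22 at 7 h. In vehicle lungs Cryab had 11.08 and 11.16 at 25 h, against 11.24 and 11.18 at 7 h. All its arrays at 25 h were below those at 7 h, by a narrow margin, and the difference was -0.16 ± 0.06 (adjusted p = 0.472, limma). Hspb6 differed by -0.39 ± 0.15 (adjusted p = 0.489) and Hspb8 by -0.25 ± 0.10 (adjusted p = 0.506), and for both the arrays of the times overlapped. Both leaned on mepenzolate 25 h replicate 2, where Hspb6 was 8.90 against 9.64 in replicate 1 and Hspb8 8.33 against 8.83. Without that array the differences were -0.20 for Hspb6 and -0.13 for Hspb8.

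Several of these genes are abundant in muscle, so muscle markers were set beside them. The 6 smooth muscle markers (Acta2, Myh11, Tagln, Cnn1, Des and Lmod1) were all nominally lower at 25 h, with a median of -0.14, and none passed. Their mean centred level was 0.08 and -0.11 in mepenzolate lungs at 25 h and 0.06 and 0.04 at 7 h. In vehicle lungs it was -0.03 and -0.22 at 25 h and -0.02 and 0.18 at 7 h. These levels overlapped between the times in mepenzolate lungs. In vehicle lungs they did not, by a narrow margin (nearest -0.026 at 25 h and -0.021 at 7 h). There 22.2% of all genes had arrays at 25 h below those at 7 h without overlap. Cardiac muscle markers were nominally higher at 25 h in 5 of 8 cases. The part of smooth muscle content in the Hspb1 difference was not tested, and in whole lung fewer cells of a type and less RNA per cell cannot be told apart.

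Hspa1a, the stress-inducible HSP70 that refolds proteins with ATP, was the only one of the 9 measured genes whose mepenzolate and vehicle arrays did not overlap at either time. At 25 h it had 7.29 and 7.25 in mepenzolate lungs, against 7.19 and 7.01 in vehicle lungs. At 7 h it had 7.37 and 7.27 in mepenzolate lungs, against 7.20 and 7.05 in vehicle lungs. Every mepenzolate array lay above every vehicle array, though the gap between the nearest arrays was small. The difference was 0.17 ± 0.10 at 25 h and 0.19 ± 0.10 at 7 h, and neither passed (adjusted p = 0.979 and 1 in limma). Averaged over both times, a comparison added after the data were seen, it was 0.18 ± 0.07 (interval 0.03 to 0.34), with an unadjusted p of 0.0269 and an adjusted p of 0.999. In that average 0.602% of all genes had mepenzolate arrays wholly above vehicle arrays, 3.77% had an unadjusted p below 0.05, and 0% passed.

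The probe that Hspa1a shares with Hspa1b, a neighbouring gene for an almost identical protein, cannot be assigned to either. It had 8.38 and 8.34 in mepenzolate lungs at 25 h, against 8.29 and 8.29 in vehicle lungs at 25 h. At 7 h it had 8.35 and 8.49 in mepenzolate lungs, against 8.25 and 8.29 in vehicle lungs. Its mepenzolate arrays were again all above its vehicle arrays, with a difference over both times of 0.11 ± 0.06 (unadjusted p = 0.105).

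Hspa8, the constitutive HSP70 that also strips clathrin from vesicles, had 12.28 and 12.42 in mepenzolate lungs at 25 h, against 12.17 and 12.29 in vehicle lungs at 25 h. The arrays of 7 h gave 12.33 and 12.26 in mepenzolate lungs, against 12.26 and 12.31 in vehicle lungs. The groups overlapped at both times, and the differences were 0.12 ± 0.09 and 0.01 ± 0.09. The 2 other Hspa8 probes gave larger values: 0.31 ± 0.10 (unadjusted p = 0.0217) and 0.37 ± 0.14 (0.0328) at 25 h, and 0.17 ± 0.10 and 0.16 ± 0.14 at 7 h, each with an adjusted p of 0.98 or more in the probe fit. On the brighter of those 2 the arrays had 11.16 and 11.36 in mepenzolate lungs at 25 h, against 10.92 and 10.99 in vehicle lungs, without overlap. The 3 probes therefore disagree on the size of the mepenzolate difference of Hspa8.

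Among the partners of HSP70, Hsph1, the HSP110 that exchanges its nucleotide and helps to dissolve aggregates, had 8.13 and 7.92 in mepenzolate lungs at 25 h, against 8.04 and 8.04 in vehicle lungs at 25 h. At 7 h it had 8.13 and 7.97 in mepenzolate lungs, against 8.06 and 8.10 in vehicle lungs. The vehicle values lay inside the mepenzolate range at both times, and the differences were -0.01 ± 0.10 and -0.03 ± 0.10.

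Dnajb1, the J protein that delivers clients to HSP70 and starts its ATP hydrolysis, had 8.07 and 7.88 in mepenzolate lungs at 25 h, against 7.93 and 7.98 in vehicle lungs at 25 h. Dnajb1 at 7 h had 8.23 and 7.97 in mepenzolate lungs, against 8.10 and 8.06 in vehicle lungs. Again the vehicle arrays lay within the mepenzolate range, with differences of 0.02 ± 0.11 at each time. Bag3, the exchange factor that links HSP70 to small heat shock proteins and to autophagy, had 8.63 and 8.46 in mepenzolate lungs at 25 h, against 8.59 and 8.58 in vehicle lungs at 25 h. At 7 h Bag3 had 8.61 and 8.69 in mepenzolate lungs, against 8.67 and 8.63 in vehicle lungs. The groups overlapped, and the differences of Bag3 were -0.04 ± 0.08 and 0.00 ± 0.08.

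Hsp90aa1, the inducible cytosolic HSP90, had 10.71 and 10.77 in mepenzolate lungs at 25 h, against 10.81 and 10.67 in vehicle lungs at 25 h. For 7 h the values were 10.80 and 10.77 in mepenzolate lungs, against 10.73 and 10.79 in vehicle lungs. The groups overlapped, and the differences were -0.0026 ± 0.081 at 25 h and 0.03 ± 0.08 at 7 h. Its dimmest probe differed by 0.33 ± 0.11 at 25 h (unadjusted p = 0.0202, adjusted p = 0.982 in the probe fit), with 9.42 and 9.46 in mepenzolate lungs against 9.21 and 9.001 in vehicle lungs. The third probe gave 0.09 ± 0.08, so the probes of Hsp90aa1 disagree as well.

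Hspd1 and Hspe1 encode HSP60 and its lid HSP10, which together form the folding chamber of the mitochondrial matrix. Hspd1 had 9.35 and 9.47 in mepenzolate lungs at 25 h, against 9.30 and 9.16 in vehicle lungs at 25 h. Hspe1 had 9.66 and 9.54 in mepenzolate lungs at 25 h, against 9.36 and 9.43 in vehicle lungs at 25 h. For both genes the mepenzolate arrays of 25 h lay above the vehicle arrays without overlap, by 0.18 ± 0.10 for Hspd1 and 0.21 ± 0.11 for Hspe1, and neither passed (adjusted p = 0.979 each, limma).

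At 7 h Hspd1 had 9.50 and 9.28 in mepenzolate lungs, against 9.27 and 9.33 in vehicle lungs. Hspe1 at 7 h had 9.76 and 9.49 in mepenzolate lungs, against 9.63 and 9.46 in vehicle lungs. Here the arrays overlapped, and the differences were 0.09 ± 0.10 and 0.08 ± 0.11. The dimmer Hspe1 probe went the other way at 7 h, at -0.24 ± 0.11, and its effect changed between the times by 0.38 ± 0.15 (unadjusted p = 0.0429, adjusted p = 1). The dimmer Hspd1 probe gave 0.21 ± 0.14 at 25 h and -0.03 ± 0.14 at 7 h.

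**Figure D3:**
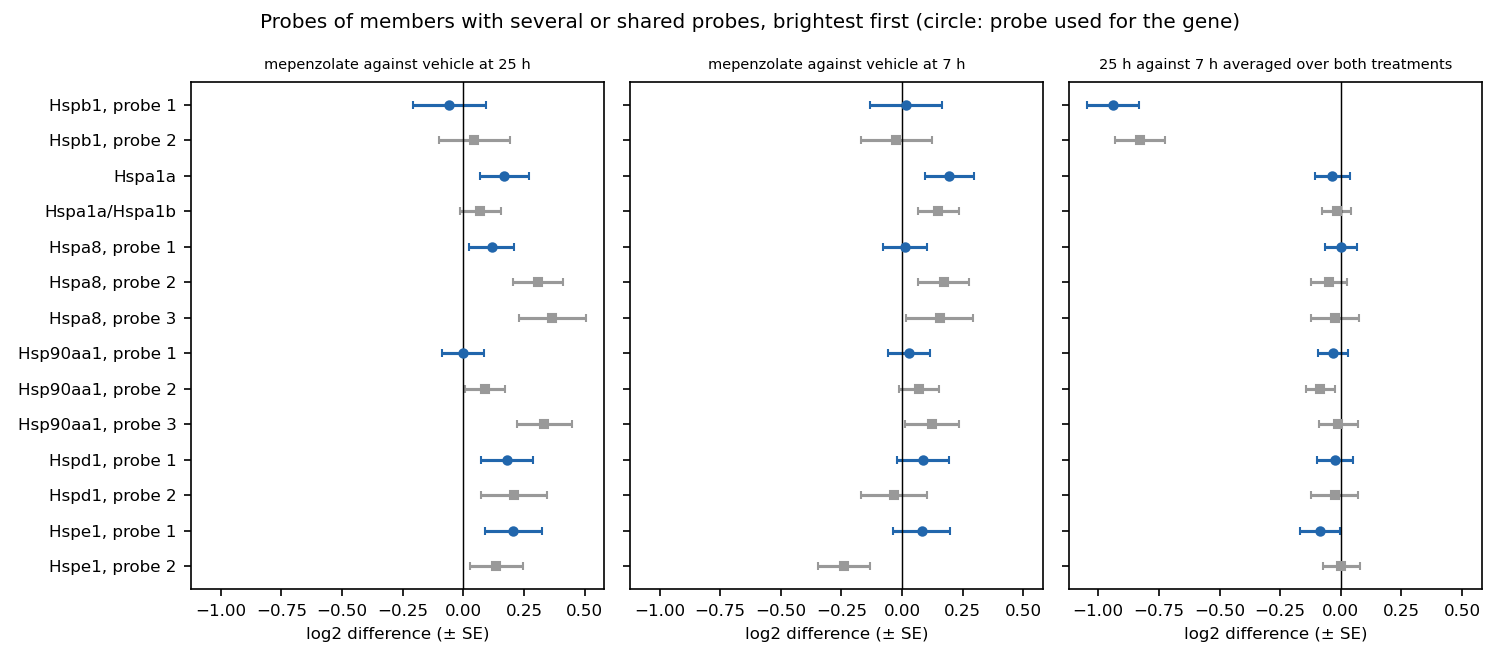
Log2 differences ± SE, in the fit of all probes, for each probe of the genes with several probes and for the probe shared by Hspa1a and Hspa1b, brightest first; blue circles are the probes used for the gene and grey squares the others. Both Hspb1 probes lie near -0.9 in the comparison of times, whereas the probes of Hspa8, Hsp90aa1 and Hspe1 spread in the comparisons of mepenzolate with vehicle.

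Over the 9 genes, 0 passed for mepenzolate against vehicle at 25 h and 0 at 7 h in limma, as did 0% of all genes at each time, and 0 of the 9 had an unadjusted p below 0.05 at either time, against 4.01% and 2.39% of all genes. At 25 h 3 of 9, Hspa1a, Hspd1 and Hspe1, had mepenzolate arrays above vehicle arrays without overlap, against 14.2% of all genes. At 7 h 1 of 9 did, Hspa1a, against 8.26%. The median difference was 0.019 at 25 h and 0.023 at 7 h, against -0.023 and -0.013 over all genes. At 7 h 8 of the 9 were nominally higher, against 43.6% of all genes, with all but 3 of these differences under 0.03. Of these 8, Bag3 turned to -0.0012 after median centring, and with the mean of probes Hspb1 turned to -0.0042 and Hspe1 to -0.080. When some single arrays were left out, all of these 8 but Hspa1a turned below 0, down to -0.19 for Hspb1. The intervals of the 9 genes ran between -0.38 and 0.46 at 25 h and between -0.31 and 0.41 at 7 h. None passed for the change of the mepenzolate effect between the times, where 0% of all genes passed, the estimates ran between -0.07 and 0.12, and 0 of the 9 genes had an unadjusted p below 0.05, against 2.68% of all genes.

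These chaperone families have many near-identical processed copies in the mouse genome. Which copy each probe reads is not given in the sources used here, so a probe's value for Hspa8, Hsp90aa1, Hspd1, Hspe1 or Hspb1 may hold signal of such copies.

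The wider chaperone network was then read from lists of 99 other genes, of which 95 had a probe of their own and 93 were tested. In limma 0 of the 93 passed in each of the 7 comparisons. For time averaged over both treatments 8 of 93 had an unadjusted p below 0.05, all of them lower at 25 h, against 8.97% of all genes (4.95% lower). For mepenzolate against vehicle the count was 3 of 93 at 25 h and 1 of 93 at 7 h, all higher. The shares of all genes were 4.01% at 25 h (1.54% higher) and 2.39% at 7 h (0.742% higher). Counts this small are not read as an excess or as the lack of one. The 3 at 25 h were Dnajb4, a J protein, at 0.26 ± 0.08, Cct6a, a subunit of the cytosolic chaperonin, at 0.24 ± 0.08, and Pdia3, a disulphide isomerase of the endoplasmic reticulum, at 0.19 ± 0.07, each with adjusted p = 0.979. Dnajb4 had 10.26 and 10.20 in mepenzolate lungs at 25 h, against 10.02 and 9.93 in vehicle lungs at 25 h, without overlap. At 7 h Dnajb4 had 10.25 and 10.18 in mepenzolate lungs, against 10.12 and 10.09 in vehicle lungs, again without overlap, as for Hspa1a. Mepenzolate arrays lay above vehicle arrays without overlap in 14.2% of all genes at 25 h, 8.26% at 7 h and 0.602% over both times. Averaged over both times Dnajb4 differed by 0.18 ± 0.05 (adjusted p = 0.999 in limma). It was named for its difference at 25 h, which is part of this average, so the average is no separate support.

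By compartment, the chaperonin and prefoldin list was nominally higher with mepenzolate at 25 h in 11 of 13 genes, against 41.3% of all genes, with a median of 0.074. At 7 h 7 of the 13 were nominally higher (median 0.0082), and for time 11 of 13 were nominally higher at 25 h (median 0.030). For time as well, 11 of 13 chaperones of the endoplasmic reticulum were nominally lower at 25 h (median -0.11), among them Sdf2l1 at -0.15 ± 0.06. The 9 other HSP70 and HSP110 genes (median 0.026), the 11 of the HSP90 system (-0.038), the 14 J proteins (0.0078), the 6 exchange factors (0.033) and the 7 mitochondrial genes (0.019) lay near 0 for time. Of the 4 tested genes for heat shock factors and their regulators all were nominally lower, with a median of -0.07. Among 8 other heat-inducible genes Serpinh1, a collagen chaperone, had the lowest t.

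Serpinh1 had 8.27 and 8.17 in mepenzolate lungs at 25 h, against 8.66 and 8.70 at 7 h. In vehicle lungs it had 8.31 and 8.40 at 25 h, against 8.51 and 8.72 at 7 h. The arrays at 25 h were all below those at 7 h. Its difference of -0.36 ± 0.07 did not pass (unadjusted p = 0.00062, adjusted p = 0.107 in limma). Cirbp, an RNA-binding protein that mammalian cells raise in the cold, had 8.83 and 9.35 in mepenzolate lungs at 25 h, against 8.76 and 8.62 at 7 h. In vehicle lungs Cirbp had 8.98 and 9.02 at 25 h, against 8.83 and 8.72 at 7 h. It was nominally higher at 25 h by 0.31 ± 0.11 (adjusted p = 0.412, limma), and by 0.18 without mepenzolate 25 h replicate 2. Its cold-induced relative Rbm3 differed by 0.08 ± 0.07, and by 0.016 without that array.

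**Figure D4:**
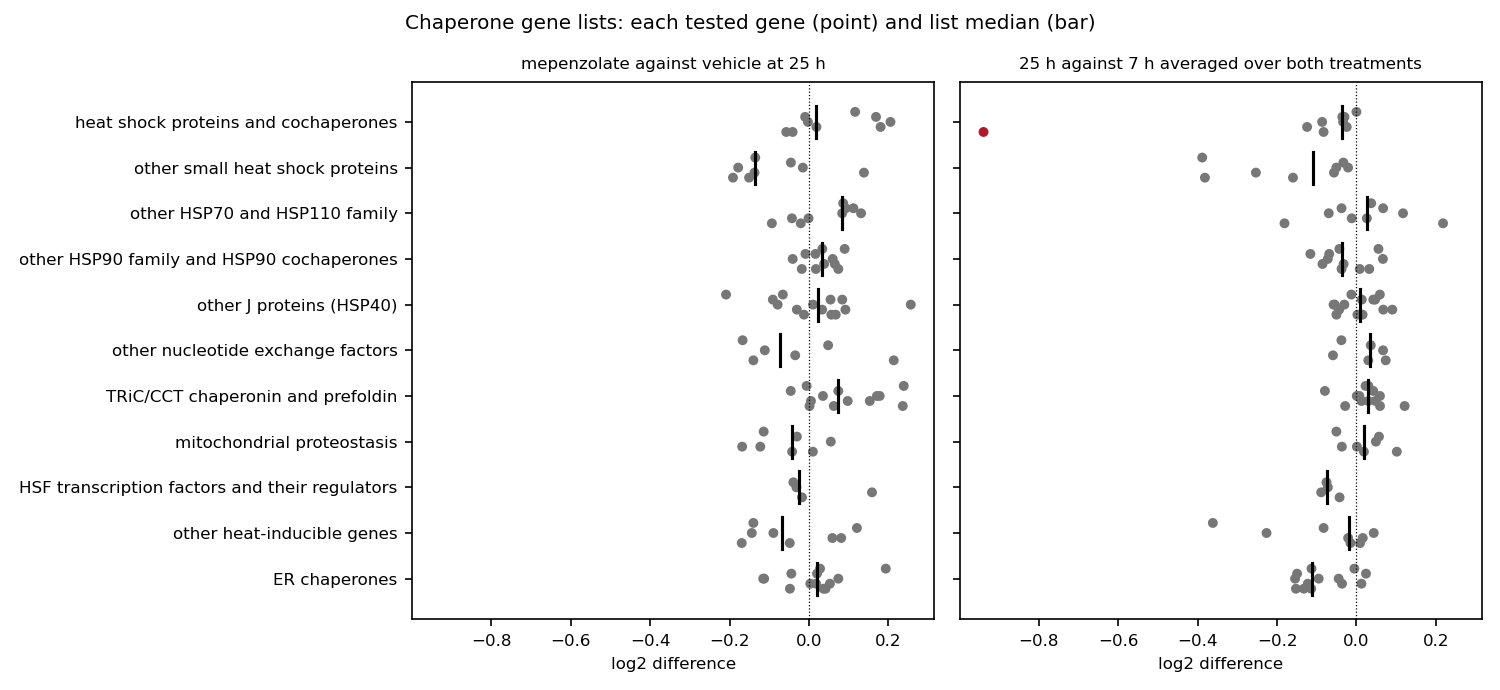
Log2 differences of every tested gene (points) of the heat shock genes described here and of 10 further chaperone lists, with list medians (bars), for mepenzolate against vehicle at 25 h and for 25 h against 7 h averaged over both treatments; the red point is Hspb1, the only gene shown with an adjusted p below 0.05. All other points for time lie between -0.39 and 0.22.

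Genes of the clock and of glucocorticoid signalling changed with time in the same lungs, as measured beside Hspb1. Of 11 core clock genes 7 passed: Arntl was higher at 25 h by 1.47, and Per1, Per2, Per3, Dbp, Tef and Nr1d2 were lower, with Per1 at -1.80, where 0.221% of all genes passed. Of 7 glucocorticoid-induced genes 3 passed averaged over both treatments, all lower at 25 h: Per1, Tsc22d3 at -0.81 and Zbtb16 at -1.39. With single arrays left out the adjusted p reached 0.0803 for Dbp, 0.134 for Nr1d2 and 0.118 for Zbtb16 in limma, while the other 6 called genes kept theirs below 0.05. Within treatments, 3 of the 7 glucocorticoid-induced genes passed in vehicle lungs (median -0.72) and 0 in mepenzolate lungs (median -0.25). The shares of all genes were 0.0869% and 0.0268%. Zbtb16 differed by -2.10 in vehicle lungs and by -0.68 in mepenzolate lungs, and this change between treatments did not pass in limma. No untreated lungs were sampled, so hours since treatment and clock time cannot be told apart. The part of either, or of the hormone, in the Hspb1 difference was not tested. Of 10 immediate early genes none passed for time, and Jun, at -0.22 ± 0.07, had the lowest t.

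The gene most like Hspb1 over the 8 arrays was Ccn2, a matricellular protein of the Hippo and TGF-beta responses, with Pearson r = 0.987. It had 10.90 and 10.57 in mepenzolate lungs at 25 h, against 11.36 and 11.50 at 7 h. In vehicle lungs it had 10.78 and 10.73 at 25 h, against 11.41 and 11.39 at 7 h. Like Hspb1 it was split by time and not by treatment, which follows from its choice by likeness to Hspb1. On the log2 scale Ccn2 fell by 0.67 ± 0.08 at 25 h (adjusted p = 0.0223, limma), a value that the same choice favours. Its adjusted p missed the threshold without any 1 of 6 arrays, reaching 0.143 without vehicle 25 h replicate 2. For the other genes the closest patterns were C2 for Hspa1a (r = 0.917), Rpl28 for Hspa8 (0.974), Ppp1r12a for Hsph1 (0.986), Ccs for Hsp90aa1 (0.932), Hdlbp for Dnajb1 (0.983), Pfdn6 for Hspd1 (0.986), Ginm1 for Hspe1 (0.983) and Fgf2 for Bag3 (0.978). Each is the highest r among all genes tested over 8 arrays that share groups, and carries no test. With the mean standardised pattern of the 9 genes the highest r were those of Csnk2a2 (0.978), Ints6 (0.977), Ciapin1 (0.970), Sec63 (0.969) and Trpm6 (0.963).

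In how far they varied at all, Hspb1 stood apart from the rest. Its SD over the 8 arrays, 0.52 on the log2 scale, was at the 99.6th percentile of the genes tested, whereas those of the other 8 ran between 0.049 for Hsp90aa1 (the 5.34th percentile) and 0.13 for Hspe1 (the 69.4th).

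Markers of the labelled tissue were bright on every array: the surfactant gene Sftpc ran between 13.49 and 13.56, the club cell gene Scgb1a1 between 13.23 and 13.49 and the type 1 cell gene Ager between 12.30 and 12.49. Mean centred levels of other cell markers varied between libraries. They were -0.65 for club cell, -0.45 for ciliated cell and 1.22 for liver markers in mepenzolate 7 h replicate 2. Other libraries reached similar levels in other lists, such as 0.57 for adipocyte markers in mepenzolate 25 h replicate 1, 0.56 for B cell markers in vehicle 25 h replicate 2, and -0.50 for adipocyte markers in vehicle 7 h replicate 1 and for neutrophil markers in vehicle 7 h replicate 2. Markers of B cells (median 0.56), T cells (0.22) and platelets (0.30) were nominally higher at 25 h in all tested genes of each list when averaged over both treatments, with none passing. The same held for ciliated cells (median 0.051), adipocytes (0.14) and erythrocytes (0.090). Liver markers (median -0.23) were all nominally lower, as were the smooth muscle markers above. For T cells the median was 0.37 in mepenzolate lungs and 0.019 in vehicle lungs (3 of 5 higher), for platelets 0.55 and 0.033 (4 of 5 higher in vehicle lungs), and for B cells 0.62 and 0.50. The part of any of these cell types in the differences above was not tested.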

How the data were processed

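Per the submitters' processing notes, the authors' deposited log2 values for 34760 probes on 8 Affymetrix mouse gene arrays were made with RMA, a background correction, between-array equalisation and probe summary that shrinks the differences of dim genes. Its version and the genome build are not given in the sources used here. The deposited values spanned 2.00 to 13.98, with medians of 6.70 to 6.77. Precision rests on the number of arrays, as there is no depth.

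Groups and replicate numbers were read from the titles. The platform annotation gave 1 symbol to 21640 probes, several to 1321 and none to 11799. Looked up by gene ID in RefSeq, 21553 of the probes with 1 symbol had an entry and 0 needed a new symbol. Genes were tested if their mean reached log2 5.93, the 25th percentile of gene means, which left 14953. limma 3.58.1 (R 4.3.3) fitted a mean for every group with a common spread, 4 residual and 4.09 prior degrees of freedom. P-values were adjusted by Benjamini-Hochberg over all genes, at 0.05. Comparisons share arrays, so calls were not overlapped. With 2 arrays against 2 an exact permutation test has a floor of 0.333, and with 4 against 4 of 0.0286.

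The genes and lists were chosen with earlier results of these data known. The average of the mepenzolate effect over both times, the fit of single probes and the fits without 1 array for genes outside the 10 were added after seeing the data. All 10 genes were named. From other lists came the genes that passed, plus those with the highest and lowest moderated t in a comparison. The fit was tested on simulated data. Other settings were replicate number as a block, no filter or one at the 50th percentile, quantile normalization, median centring, a robust intensity trend, weights per array, averaged probes, the compared groups alone, and 8 fits that each left out 1 array.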

Additional observations from a re-analysis of the deposited data

How the results depend on the processing

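Hspb1 at 25 h against 7 h averaged over both treatments stayed called in 8 other fits per gene (adjusted p between 0.00174 and 0.0264 in limma, 0.0121 with the replicate block) and missed the threshold in the fit of single probes (0.0624). In the labels same-numbered arrays share only a number. The 6 correlations of their deviations ran between -0.0209 and 0.396, with 3 over 0.1. Those 3 were 0.396, 0.33 and 0.194, among mepenzolate 25 h, mepenzolate 7 h and vehicle 7 h. Whether same-numbered arrays share a batch is not in the labels and was not tested. With that block 1 gene was called for mepenzolate against vehicle at 25 h, against 0 without it, 9 against 4 for time in mepenzolate lungs, and 73 against 33 for time averaged over both treatments. In this average a stricter filter called 72 genes, an intensity trend 123 and the fit of single probes 11. In mepenzolate lungs no filter and the compared groups alone called 1 gene each, while quantile normalization, array weights and single probes called 0. In vehicle lungs, where 13 were called, quantile normalization called 7, the trend 33, array weights 55 and single probes 0. Of the 9 heat shock genes 1, Hspb1, was called there after median centring, with the trend, with array weights and in the compared groups alone. The cause of these shifts in the counts was not tested.

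Over the 63 differences of the 9 genes in 7 comparisons, the sign turned in 13 of 596 values from other settings, and 0 of those 13 passed the test after turning. Most of those settings change only the spread or the features tested and give the same difference. A sign could turn only with quantile normalization, median centring or the mean of probes. The share of 13 in 596 is therefore no measure of how stable the signs are. With single arrays left out, which the 596 do not include, the sign turned in 71 values. For mepenzolate against vehicle at 25 h, median centring gave 0.018 for Hsph1 and 0.025 for Hsp90aa1, and the mean of probes gave 0.14 for Hsp90aa1. At 7 h median centring gave -0.0012 for Bag3, and the mean of probes -0.0042 for Hspb1 and -0.080 for Hspe1. For the change of that effect between the times, median centring gave 0.0072 for Hspa1a, 0.0013 for Hsp90aa1 and 0.029 for Dnajb1, and the mean of probes 0.067 for Hsp90aa1. For time, the mean of probes gave 0.083 for Hspe1 in mepenzolate lungs, and quantile normalization gave 0.0022 for Hsp90aa1 in vehicle lungs and 0.0075 for Hspa8 averaged over both treatments. The cause was not tested.

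With each of the 8 arrays left out in turn, the lone array of a group was taken to vary like the other groups. Counts of genes called then ran between 0 and 1 for mepenzolate against vehicle at 25 h, between 0 and 2 for mepenzolate against vehicle at 7 h, between 0 and 2 for the change of the mepenzolate effect between the times, and between 0 and 2 for time in mepenzolate lungs. They ran between 0 and 14 for time in vehicle lungs, between 11 and 34 for time averaged over both treatments, and between 0 and 2 for mepenzolate against vehicle averaged over both times. The number of the 9 heat shock genes called ran between 0 and 1 for time in vehicle lungs and between 0 and 1 for time averaged over both treatments. For mepenzolate against vehicle at 25 h, Hspb1 ran between -0.18 and 0.069, Hsph1 between -0.11 and 0.095, Hsp90aa1 between -0.071 and 0.065 and Dnajb1 between -0.077 and 0.11. In the same comparison Bag3 ran between -0.12 and 0.042. For mepenzolate against vehicle at 7 h, Hspb1 ran between -0.19 and 0.22, Hspa8 between -0.020 and 0.044, Hsph1 between -0.11 and 0.055 and Hsp90aa1 between -0.0012 and 0.060. In the same comparison Dnajb1 ran between -0.10 and 0.15, Bag3 between -0.034 and 0.043, Hspd1 between -0.024 and 0.20 and Hspe1 between -0.050 and 0.21. For the change of the mepenzolate effect between the times, Hspb1 ran between -0.28 and 0.14, Hspa1a between -0.12 and 0.067, Hsph1 between -0.086 and 0.12 and Hsp90aa1 between -0.10 and 0.036. In the same comparison Dnajb1 ran between -0.13 and 0.12, Bag3 between -0.13 and 0.037, Hspd1 between -0.015 and 0.20 and Hspe1 between -0.0071 and 0.26. For time in mepenzolate lungs, Hspa1a ran between -0.10 and 0.00058, Hspa8 between -0.020 and 0.12, Hsph1 between -0.13 and 0.083 and Dnajb1 between -0.25 and 0.0013. In the same comparison Hspd1 ran between -0.087 and 0.13 and Hspe1 between -0.16 and 0.11. For time in vehicle lungs, Hspa1a ran between -0.12 and 0.071, Hspa8 between -0.11 and 0.0064 and Hsp90aa1 between -0.086 and 0.050. For time averaged over both treatments, Hspa1a ran between -0.082 and 0.011, Hspa8 between -0.036 and 0.036, Hsph1 between -0.082 and 0.022 and Hsp90aa1 between -0.068 and 0.00030. In the same comparison Hspd1 ran between -0.079 and 0.030. For mepenzolate against vehicle averaged over both times, Hspb1 ran between -0.12 and 0.083, Hsph1 between -0.071 and 0.033, Hsp90aa1 between -0.021 and 0.047 and Dnajb1 between -0.043 and 0.085. In the same comparison Bag3 ran between -0.060 and 0.023.

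With 2 arrays a group, the intervals of the 9 genes for mepenzolate against vehicle reached 0.46 at 25 h and 0.41 at 7 h, and a difference that did not pass is not shown to be absent. Arrays give no depth, and RMA shrinks the differences of dim genes. Hspa1b has no probe of its own. Where several probes read a gene, those of Hspa8, Hsp90aa1 and Hspe1 differed in the size or sign of the mepenzolate difference.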
